A study of Homo sapiens with 6 samples.

Results

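Cyclins, cyclin-dependent kinases, their inhibitors, DNA replication factors and mitosis genes were measured on Illumina bead arrays in the human chondrosarcoma line SW1353. The members were 45 genes chosen by symbol, with earlier results of these data known, out of 18848 genes named by a probe of the array. They fall into G1 cyclins and kinases with E2F1 (9 genes), kinase inhibitors with RGCC (4 genes), S phase and DNA replication (14 genes), and G2 and mitosis (18 genes). A probe carried the symbol of 44 of them, and 39 were tested among 9078 genes. The IL-1 group had 3 samples, in which the cytokine interleukin-1 alpha (IL-1) was present for 6 h at a dose of 0.5 ng/ml. The control group had 3 samples without it. Cells of both groups had been seeded in medium with serum and kept in medium without serum for about 20 h before those 6 h, so every level is one of serum-starved cells. SW1353 is 1 tumour line, and whether the samples are separate cultures is not stated. A p-value here therefore reflects sample-to-sample spread that could be technical, and precision is limited by having 3 arrays per group. Sample titles are of 2 kinds, Allstars (replicates 1 and 2 of each group) and Sample (replicate 3 of each group). What the kinds stand for is not stated.

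Cells leave G1 when D-type cyclins with CDK4 or CDK6, and then cyclin E with CDK2, phosphorylate the RB family and release E2F factors. E2F factors switch on genes for DNA synthesis at the start of S phase, and a later group, controlled through CHR and CCAAT elements by the DREAM complex, MYB and FOXM1, is expressed in G2 and mitosis. Removal of serum commonly holds cultured cells in G1, though tumour lines with lesions in this pathway may go on cycling. In a bulk RNA sample, fewer cells in a phase and less RNA per cell cannot be told apart, and the arrays hold no measure of cell number or DNA content.

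Levels are log2 signals after background correction and quantile normalization, and differences are IL-1 minus control on that scale, with the SE of the fit without a block after ±. A gene was called when its limma p, adjusted by Benjamini-Hochberg over all genes tested, was under 0.05. Per array, 11954 to 13357 probes and 37 to 39 of the tested members had a detection p under 0.01, here called well above background. All 6 of 6 genes used to check the response rose, among them IL6 (limma adjusted p = 7.15e-07). Of 11 cartilage markers 3 were tested. The defining markers COL2A1 and ACAN were not, since they were not well above background on 3 arrays, and SOX9 fell, with a difference of -0.94 (limma adjusted p = 0.0186). Mesenchymal markers were tested for 7 of 8 genes, with 0 called by limma in the fit without a block, leukocyte markers for 3 of 12, without PTPRC, and endothelial and epithelial markers for 1 of 9. With the block the mesenchymal markers PDGFRB and COL1A2 fell, 1 leukocyte marker (CD68) rose, 1 (CSF1R) fell and the endothelial marker VWF fell, and their part in the results was not tested. The Sample arrays stood apart, detected probes having 7.38 and 7.12 times the median signal of undetected ones, against 3.19 to 4.22 times on the Allstars arrays.

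Most members differed little in level between the IL-1 and control arrays. In the fit without a block CCND3, for cyclin D3, rose, RGCC, a regulator of cell cycle progression, fell, and no other member was called. Both calls were lost in 1 of 27 alternative settings, equal medians of all probes in place of quantile normalization (limma adjusted p = 1.00 and 0.0697), where the differences were 1.44 for CCND3 and -2.33 for RGCC. These 2 calls are 5.13% of the 39 tested members, against 9.02% of all genes. Among all genes 6.08% rose and 2.94% fell. The difference was under 0.5 in size for 36 members (92.3%), against 79.8% of all genes. The median difference was -0.17 over the members and -0.11 over all genes. At an unadjusted p under 0.05, 1 member was higher and 7 were lower, against 897 and 1114 of all 9078 genes.

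A fit that gave each title series its own baseline (title series as a block) called 14 members, 35.9% of those tested, against 35.2% of all genes. In it 4 members rose and 10 fell, with 13% of all genes risen and 22.2% fallen. The members as a whole were thus called at about the share of all genes in this fit. With the block, 6 of 7 tested G1 genes were called (3 rose, 3 fell), 1 of 3 inhibitors and RGCC (fell), 4 of 13 S phase genes (all fell) and 3 of 16 mitosis genes (1 rose, 2 fell). The intervals of 37 of 39 members lay within 2-fold of no change, as did those of 7813 of all 9078 genes. Of the 14 calls, 13 were also made with the block from the authors' log2 values and 12 after equal medians of the kept probes, but 3 (CCND3, CCNE1 and RGCC) after equal medians of all probes. The mitosis counts moved with the scaling, to 0 risen and 5 fallen from the authors' values and to 2 risen and 0 fallen after equal medians of the kept probes.

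**Figure D1:**
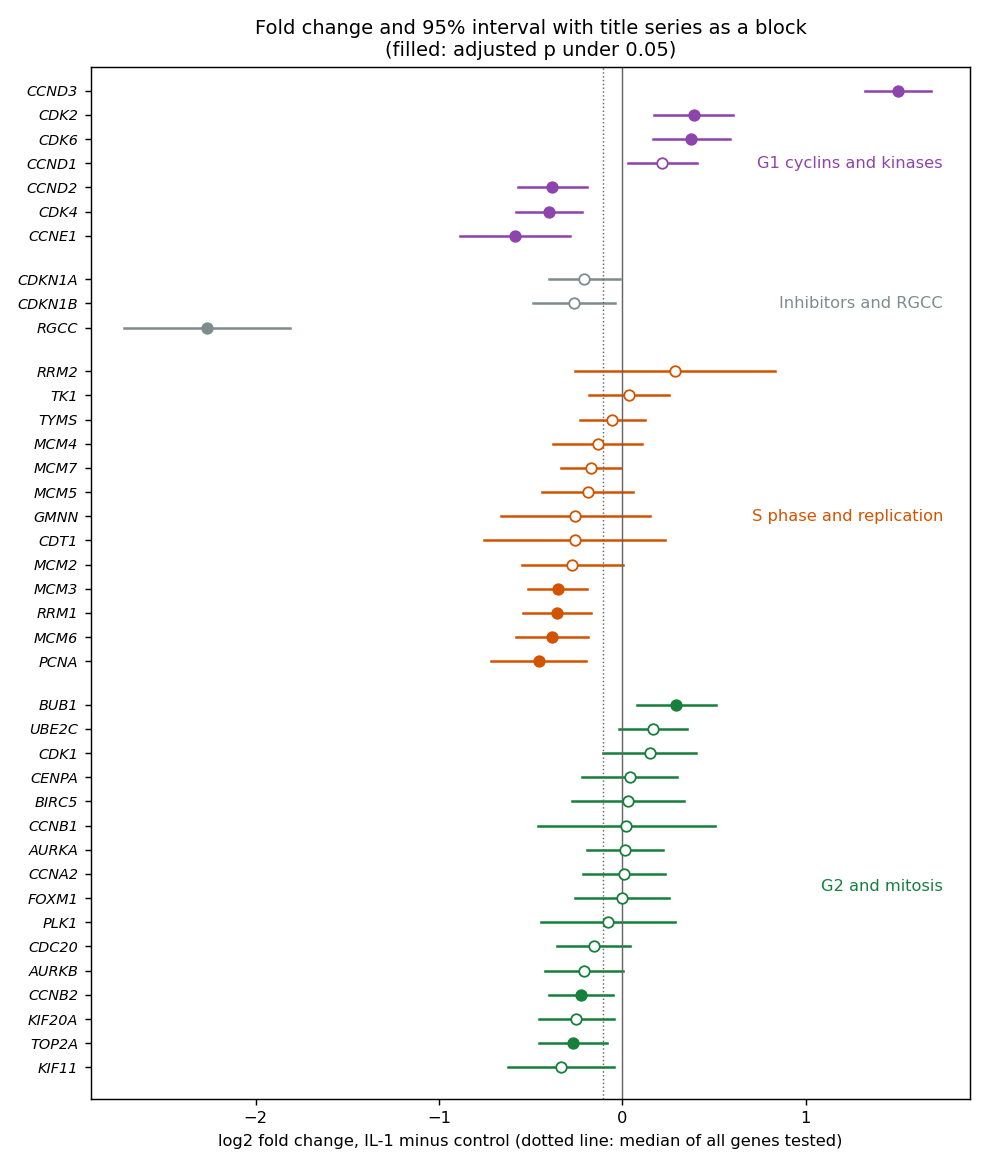
Difference of each of the 39 tested members, IL-1 minus control (x axis, log2), with its 95% interval in the fit with title series as a block, in 4 groups. Filled points had a limma adjusted p under 0.05 in that fit. CCND3 at 1.50 and RGCC at -2.27 lie outside the range of the other 37 members, whose points fall between -0.59 and 0.39.

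The promoters of CCND3 and RGCC, the pair called in both fits, are shown from 250 bases before to 50 bases after the start of the gene, as RefSeq gives them on GRCh38.p14. The CCND3 window is chr6:42048639-42048938 on the minus strand and the RGCC window is chr13:41457300-41457599 on the plus strand. Capitals mark each GC box (GGGCGG on either strand), the letters read by SP1-family factors. Both read 5′ to 3′ on the gene's strand.
CCND3: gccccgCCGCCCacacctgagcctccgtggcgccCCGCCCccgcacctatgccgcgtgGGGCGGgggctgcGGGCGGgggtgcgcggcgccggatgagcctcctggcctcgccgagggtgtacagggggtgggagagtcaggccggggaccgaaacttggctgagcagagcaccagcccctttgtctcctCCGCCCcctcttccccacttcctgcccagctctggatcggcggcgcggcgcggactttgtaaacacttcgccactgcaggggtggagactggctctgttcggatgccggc
RGCC: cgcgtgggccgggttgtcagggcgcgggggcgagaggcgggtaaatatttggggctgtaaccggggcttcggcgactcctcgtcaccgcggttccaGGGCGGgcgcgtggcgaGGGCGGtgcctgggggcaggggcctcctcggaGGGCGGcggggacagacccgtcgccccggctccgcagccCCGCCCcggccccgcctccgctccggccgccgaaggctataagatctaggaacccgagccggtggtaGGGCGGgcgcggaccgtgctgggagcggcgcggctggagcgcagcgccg
Each window held 5 GC boxes, a motif also found in 70.2% of the promoters of genes tested and in 15786 of all 35116 promoters of this length. Neither window held the E2F, CHR or CCAAT letters. The letters searched for NF-kB (GGG, any pair of bases, TTTCC) and AP-1 (TGANTCA), factors that IL-1 is known to activate, were absent too. They occur in only 2.25% and 4.62% of promoters of genes tested, so absence from 2 windows was likely beforehand and decides nothing. Only the first window listed for each gene was searched, so a promoter at any other start site was not examined.

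CCND3 encodes cyclin D3, which activates CDK4 and CDK6 in G1. Its level was 11.58, 11.57 and 10.79 on the IL-1 arrays, against 9.99, 9.94 and 9.49 on the control arrays, in replicate order. All 3 IL-1 arrays lay above all 3 control arrays, as they did for 11% of all genes and for no other member. The mean was 11.31 ± 0.45 with IL-1 and 9.81 ± 0.28 in controls (SD, n = 3 each), a difference of 1.50 ± 0.25 (SE) or 2.84-fold (limma adjusted p = 0.00808). The block narrowed the interval of the difference to 1.32 to 1.69 (limma adjusted p = 4.87e-09). Within the series it was 1.61 on the Allstars arrays and 1.30 on the Sample arrays. Leaving out any 1 array kept the call, with limma adjusted p between 0.000774 and 0.0457.

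Neither of the other D-type cyclins was called higher in these fits. CCND1, for cyclin D1, was at 13.18, 13.30 and 12.70 with IL-1, against 13.21, 13.12 and 12.20 in controls. These ranges overlap, and the difference of 0.22 ± 0.28 was not called, without or with the block (limma adjusted p = 0.732 and 0.0678). With the block, CCND1 rose when IL-1 replicate 1 or control replicate 1 was left out (limma adjusted p = 0.0232 and 0.0459) and after equal medians of the kept probes (0.019), while the difference was 0.08 without either Sample array. CCND2, for cyclin D2, was at 10.38, 10.62 and 8.77 with IL-1, against 10.89, 10.81 and 9.21 in controls, both Sample arrays lying below all Allstars arrays. Each IL-1 array was below the controls of its own series, with mean differences of -0.35 on Allstars and -0.44 on Sample. CCND2 fell with the block (-0.38, 95% interval -0.57 to -0.19, limma adjusted p = 0.00404, against 0.782 without it). Its other kept probe differed by -0.35 and was not called with the block (limma adjusted p = 0.0504, adjusted over all kept probes instead of genes).

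CCNE1, for cyclin E1, which activates CDK2 at the start of S phase, was at 6.93, 6.98 and 7.04 with IL-1, against 7.58, 7.68 and 7.44 in controls. All IL-1 arrays lay below all control arrays, as for 17.1% of all genes and for 8 members in all. The difference of -0.59 ± 0.16 missed the threshold without the block (limma adjusted p = 0.0646) and CCNE1 fell with it (0.00518). CDK4, a partner of the D-type cyclins, was at 10.62, 10.46 and 10.82 with IL-1, against 11.06, 10.97 and 11.08 in controls. These groups did not overlap either. The CDK4 difference was -0.40 ± 0.13, not called without the block (limma adjusted p = 0.123) and fallen with it (0.00199).

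The kinases CDK6 and CDK2 lay on the other side. CDK6, which shares the D-type cyclins with CDK4, was at 10.56, 10.33 and 10.18 with IL-1, against 10.11, 10.24 and 9.59 in controls. CDK2, the partner of cyclins E and A, was at 8.69, 8.64 and 9.11 with IL-1, against 8.22, 8.16 and 8.89 in controls. Both overlap between groups across the series and separate within each series. Their differences were 0.38 ± 0.20 and 0.39 ± 0.24, not called without the block (limma adjusted p = 0.331 and 0.407), and both rose with it (0.00772 and 0.0079). With the block and any 1 array left out, CDK2 was called in 6 of 6 fits and CDK6 in 4 of 6. CDK6 was lost when either Sample array was left out. All 7 tested G1 genes kept 1 sign in both title series.

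**Figure D2:**
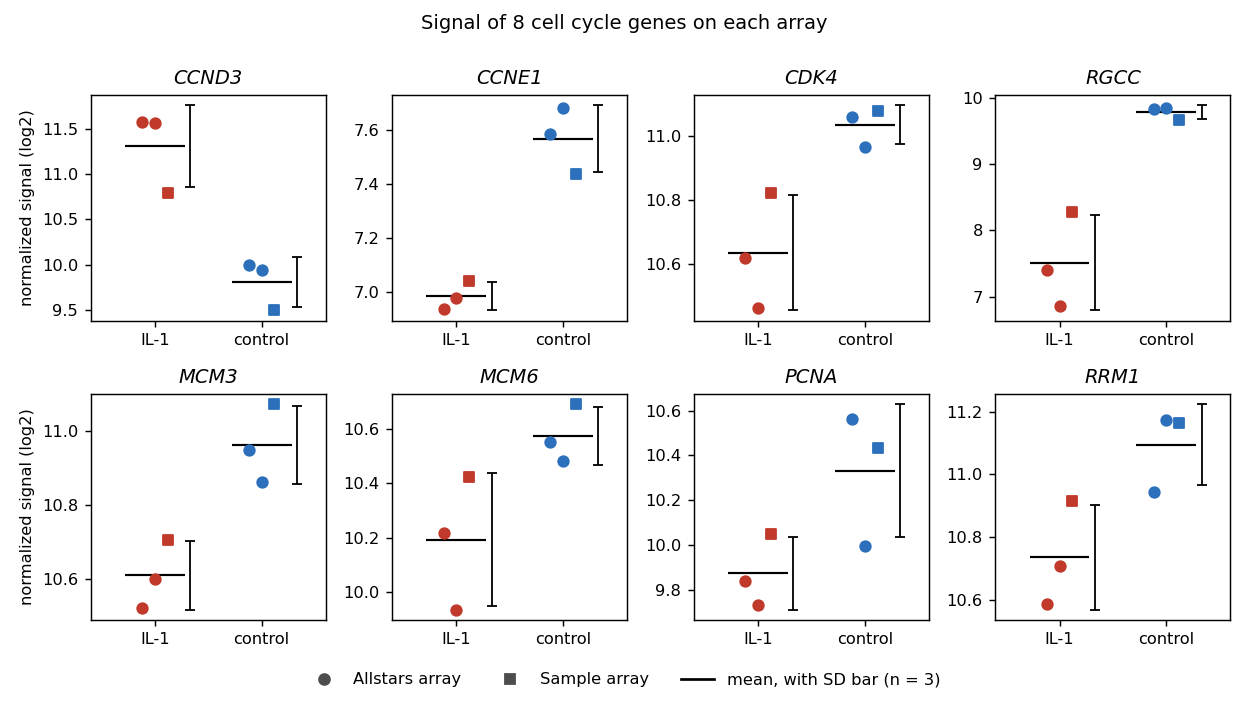
Normalized signal (y axis, log2, scaled separately for each gene) of 8 members on each IL-1 array (left) and control array (right); circles are Allstars arrays, squares are Sample arrays, horizontal lines are means and the bars beside them are SDs (n = 3). CCND3 lies higher with IL-1 on every array, RGCC, CCNE1, CDK4, MCM3, MCM6 and RRM1 lie lower on every array, and for PCNA the highest IL-1 array (10.05) overlaps the lowest control array (10.00).

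RGCC encodes a regulator of cell cycle that was first described as induced by complement and whose protein has been reported to bind CDK1. Its level was 7.40, 6.86 and 8.28 with IL-1, against 9.83, 9.85 and 9.66 in controls, well above background on every array. The 3 control arrays lay within 0.19 of each other, while the IL-1 arrays spread over 1.42. The means were 7.51 ± 0.72 with IL-1 and 9.78 ± 0.10 in controls (SD, n = 3 each), so RGCC was 4.81-fold lower with IL-1 (log2 difference -2.27 ± 0.33, limma adjusted p = 0.00419). With the block the 95% interval was -2.72 to -1.81 (limma adjusted p = 1.33e-06). The difference was -2.71 on the Allstars arrays and -1.38 on the Sample arrays. The test of that gap gave an unadjusted p of 0.00058 and a limma adjusted p of 0.294, and 0% of all genes were called by it (552 of 9078 at an unadjusted p under 0.05). Leaving out any 1 array kept the call of RGCC, with limma adjusted p between 0.000136 and 0.0259.

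Neither tested kinase inhibitor was called in these fits. CDKN1A, for p21, which blocks CDK2 and is a p53 target, was at 11.80, 12.10 and 11.08 with IL-1, against 12.16, 12.30 and 11.14 in controls. Its difference of -0.21 ± 0.36 was not called without the block or with it (limma adjusted p = 0.81 and 0.0906). The interval with the block, -0.40 to -0.01, lies below 0. CDKN1B, for p27, an inhibitor that builds up in arrested cells, was at 8.46, 8.41 and 7.82 with IL-1, against 8.75, 8.57 and 8.16 in controls. Each IL-1 array was below the controls of its own series, with a difference of -0.26 ± 0.23 that was not called (limma adjusted p = 0.591, and 0.0641 with the block). From the authors' log2 values with the block CDKN1B fell (-0.25, limma adjusted p = 0.0358). Its other kept probe differed by -0.04, and that of CDKN1A by -0.08. CDKN2C, which inhibits CDK4 and CDK6, had no probe named in the annotation used and was not analysed here.

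Promoters of the S phase genes that fell with the block are shown as RefSeq gives them on GRCh38.p14, with E2F letters (TTTNNCGC) and CCAAT boxes in capitals on either strand. The windows are chr6:52284693-52284992 (minus strand) for MCM3, chr2:135876394-135876693 (minus strand) for MCM6, chr20:5126573-5126872 (minus strand) for PCNA and chr11:4094435-4094734 (plus strand) for RRM1.
MCM3: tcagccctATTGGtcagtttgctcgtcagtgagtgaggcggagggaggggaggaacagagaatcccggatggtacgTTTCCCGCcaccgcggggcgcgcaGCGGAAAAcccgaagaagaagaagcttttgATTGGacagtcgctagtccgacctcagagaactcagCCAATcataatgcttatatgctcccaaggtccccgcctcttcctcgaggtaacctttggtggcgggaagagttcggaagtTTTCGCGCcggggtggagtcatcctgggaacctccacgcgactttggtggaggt
MCM6: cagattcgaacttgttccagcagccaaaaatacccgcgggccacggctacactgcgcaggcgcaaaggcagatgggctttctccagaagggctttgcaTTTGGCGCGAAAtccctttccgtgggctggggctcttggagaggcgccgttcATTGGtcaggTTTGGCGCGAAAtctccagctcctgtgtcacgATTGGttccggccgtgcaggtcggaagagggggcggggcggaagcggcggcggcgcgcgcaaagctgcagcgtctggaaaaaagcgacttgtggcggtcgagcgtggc
PCNA: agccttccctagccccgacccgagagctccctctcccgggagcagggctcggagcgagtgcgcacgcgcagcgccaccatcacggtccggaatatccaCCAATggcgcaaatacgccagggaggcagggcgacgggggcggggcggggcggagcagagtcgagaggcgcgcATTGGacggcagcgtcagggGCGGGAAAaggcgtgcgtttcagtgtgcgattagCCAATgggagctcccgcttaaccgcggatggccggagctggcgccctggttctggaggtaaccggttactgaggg
RRM1: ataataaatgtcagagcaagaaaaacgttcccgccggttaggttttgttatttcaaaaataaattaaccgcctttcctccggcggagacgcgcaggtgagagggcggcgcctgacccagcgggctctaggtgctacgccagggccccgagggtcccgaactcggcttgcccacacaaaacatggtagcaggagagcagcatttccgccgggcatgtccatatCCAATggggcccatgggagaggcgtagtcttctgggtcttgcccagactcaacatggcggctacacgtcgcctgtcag
E2F letters occurred 3 times in MCM3 and 1 time in PCNA. MCM6 held 4 occurrences, in 2 places where the letters read on both strands and overlap. RRM1 held no E2F letters within this window, and 1 CCAAT box. It also held 1 CHR match (TTTGAA on either strand), which is not in capitals here.

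No S phase or DNA replication member was called by limma without the block, out of 13 tested. At an unadjusted p under 0.05, 4 were lower and 0 higher, against 1114 and 897 of all 9078 genes. With the block MCM3, MCM6, PCNA and RRM1 fell, 30.8% of the 13, against 22.2% of all genes fallen in that fit. The median difference of the 13 was -0.26, against -0.11 over all genes, with 11 of 13 below 0 (84.6%, against 65.4% of all genes). Among the 11, CDT1 passed the detection filter only through the controls, so its sign is not independent of that filter. Among genes well above background on all 6 arrays, without CDT1 and RRM2, the median was also -0.26. On the Allstars arrays alone the median of the 13 was -0.17, against -0.11 over all genes. On the Sample arrays, 1 against 1, it was -0.27, against -0.10. Single differences ran from -0.46 to 0.29. All 13 intervals with the block lay within 2-fold of no change, as did those of 7813 of all 9078 genes. Within 1.5-fold lay 9 of 13 (69.2%), against 59.0% of all genes.

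PCNA, the sliding clamp of DNA polymerases, was at 9.84, 9.73 and 10.05 with IL-1, against 10.56, 10.00 and 10.43 in controls. The groups overlap by 1 array on each side. The difference was -0.46 ± 0.18, not called without the block (limma adjusted p = 0.189) and fallen with it (0.00908), a call lost without control replicate 1, where the difference was -0.28 (0.0517 with the block). MCM6, a subunit of the MCM helicase, was at 10.22, 9.93 and 10.43 with IL-1, against 10.55, 10.48 and 10.69 in controls. Its groups did not overlap, with a difference of -0.38 ± 0.16 (limma adjusted p = 0.203, and 0.00497 with the block).

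RRM1, the large subunit of ribonucleotide reductase, was at 10.59, 10.71 and 10.92 with IL-1, against 10.95, 11.17 and 11.16 in controls. MCM3, another helicase subunit, was at 10.52, 10.60 and 10.71 with IL-1, against 10.95, 10.86 and 11.07 in controls. Neither overlapped between groups. Their differences were -0.36 ± 0.14 and -0.35 ± 0.12 (limma adjusted p = 0.178 and 0.136, and 0.00522 and 0.00247 with the block). MCM3 differed by -0.35 on Allstars and -0.37 on Sample arrays, MCM6 by -0.44 and -0.27, RRM1 by -0.41 and -0.25, and PCNA by -0.49 and -0.38. The other kept MCM3 probe differed by -0.10 and was not called with the block (limma adjusted p = 0.498, adjusted over all kept probes). Set against the median of all genes, these differences come to -0.35 for PCNA, -0.28 for MCM6 and -0.25 for both MCM3 and RRM1.

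The other subunits of the MCM helicase were not called in either fit. With the block their limma adjusted p was 0.115 for MCM2 (difference -0.27), 0.376 for MCM4 (-0.13), 0.225 for MCM5 (-0.19) and 0.0977 for MCM7 (-0.17). MCM7 was the only one of these 4 in which all IL-1 arrays lay below all control arrays. The other kept MCM4 probe had the opposite sign (0.18). The enzymes of nucleotide supply TYMS (thymidylate synthase), TK1 (thymidine kinase) and RRM2 (the small reductase subunit) differed by -0.05, 0.04 and 0.29, with limma adjusted p of 0.65, 0.81 and 0.41 with the block. RRM2 was well above background on 2 IL-1 and 2 control arrays.

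The origin licensing factor CDT1 differed by -0.26, with 1 IL-1 and 3 control arrays well above background (limma adjusted p = 0.41 with the block). It passed the detection filter only through the controls, the group in which it was higher. GMNN, for geminin, which binds and inhibits CDT1, was at 8.64, 8.52 and 7.99 with IL-1, against 8.37, 8.45 and 9.08 in controls. It differed by 0.16 on the Allstars arrays and by -1.09 on the Sample arrays, opposite signs in the series. The test of that gap gave an unadjusted p of 8.01e-05 and a limma adjusted p of 0.173 over all genes.

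G2 and mitosis genes showed the smallest differences of the 4 groups, with a median size of 0.15, against 0.23 over all genes. Their median difference was 0.00, against -0.11 over all genes. With equal array medians it was -0.18, against -0.22 over all genes. Without the block 0 of 16 tested were called by limma, also 0 at an unadjusted p under 0.05. By that measure 897 of all 9078 genes were higher and 1114 lower. The differences of the 16 ran from -0.33 for KIF11, the spindle motor that separates centrosomes, to 0.30 for BUB1, a spindle checkpoint kinase. Of them 8 were above and 8 below 0, while 65.4% of all genes were below 0. With the block, 15 of 16 intervals (93.8%, against 59.0% of all genes) lay within 1.5-fold of no change, KIF11 being the exception. The lowest bound of any was -0.62 and the highest was 0.51.

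CCNB2 and TOP2A were the mitosis members that fell with the block, and their promoters are shown with CHR letters (TTTGAA) and CCAAT boxes in capitals on either strand. The windows are chr15:59104896-59105195 (plus strand) for CCNB2 and chr17:40417847-40418146 (minus strand) for TOP2A, as RefSeq gives them on GRCh38.p14.
CCNB2: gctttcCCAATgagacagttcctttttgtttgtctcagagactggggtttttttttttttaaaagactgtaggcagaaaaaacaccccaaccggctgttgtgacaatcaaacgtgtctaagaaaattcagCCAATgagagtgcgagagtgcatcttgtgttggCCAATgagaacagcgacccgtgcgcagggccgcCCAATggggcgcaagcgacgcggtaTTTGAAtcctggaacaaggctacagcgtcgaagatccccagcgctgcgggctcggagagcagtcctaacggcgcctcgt
TOP2A: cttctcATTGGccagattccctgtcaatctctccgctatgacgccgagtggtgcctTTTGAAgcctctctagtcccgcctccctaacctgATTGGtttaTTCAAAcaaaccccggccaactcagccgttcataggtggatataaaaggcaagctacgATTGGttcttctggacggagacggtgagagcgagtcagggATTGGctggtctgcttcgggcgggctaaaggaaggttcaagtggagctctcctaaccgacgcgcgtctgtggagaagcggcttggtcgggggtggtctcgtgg
CCNB2 held 1 CHR match, starting 29 bases before the start of the gene, and 4 CCAAT boxes. TOP2A held 2 CHR matches and 4 CCAAT boxes. CHR letters were also held by CDK1, PLK1, CDC20, CENPA and KIF11, which were not called in either fit. They were not held by CCNA2, CCNB1, AURKB and KIF20A, also not called, or by BUB1, which rose with the block.

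BUB1 was at 8.79, 8.63 and 8.40 with IL-1, against 8.42, 8.43 and 8.08 in controls. TOP2A, the topoisomerase that untangles sister DNA, was at 9.69, 9.67 and 9.77 with IL-1, against 9.85, 10.06 and 10.02 in controls. CCNB2, for cyclin B2, was at 9.83, 9.86 and 9.51 with IL-1, against 10.11, 10.09 and 9.67 in controls. TOP2A was the one of these whose groups did not overlap. The differences were 0.30 ± 0.17 for BUB1, -0.27 ± 0.13 for TOP2A and -0.22 ± 0.18 for CCNB2 (limma adjusted p = 0.388, 0.272 and 0.538). With the block BUB1 rose and TOP2A and CCNB2 fell (limma adjusted p = 0.0341, 0.028 and 0.0459). When 1 array was left out as well, BUB1 and TOP2A were each called in 1 of 6 such fits and CCNB2 in 0 of 6.

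The other 13 tested mitosis members were not called in either fit. The kinase CDK1 that drives mitosis differed by 0.15 and its cyclins CCNA2 and CCNB1 by 0.01 and 0.02. The mitotic kinases AURKA, AURKB and PLK1 differed by 0.01, -0.21 and -0.08, and FOXM1, a factor that activates many genes of G2, by -0.0030. CDC20 and UBE2C, which act with the anaphase-promoting complex, differed by -0.16 and 0.17. The centromere histone CENPA and the chromosomal passenger BIRC5 differed by 0.04 and 0.03, and the cytokinesis motor KIF20A by -0.25 (limma adjusted p = 0.0548 with the block). Other kept probes of CDK1, AURKA and CENPA differed by -0.05, 0.09 and 0.07, and those of KIF11 and FOXM1 by -0.20 and -0.12.

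A further 5 members had a probe that was well above background on 0 of 6 arrays and were not tested. These were MKI67, the proliferation antigen Ki-67, BUB1B, a spindle checkpoint protein, CCNE2, for cyclin E2, CDC6, a licensing factor, and E2F1. Raw signals of the MKI67 probe were 67.7, 73.5 and 105 with IL-1, against 76.1, 67.3 and 103 in controls. Array medians over all probes were 63.2, 63.2 and 91.5 with IL-1, against 67.2, 60.3 and 95.3 in controls. The BUB1B signals were 60.8, 68.4 and 159 with IL-1, against 73.2, 65.6 and 155 in controls. For these 5 genes no change could be measured at this signal, and the values say nothing of whether the cells divide.

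Promoter letters had no part in how the members were chosen. A RefSeq promoter was found for 35 of the 45 members. E2F letters (TTTNNCGC) were held by 8 of 12 S phase promoters (66.7%) and 2 of 14 mitosis promoters (14.3%), against 11.1% of 7552 promoters of genes tested and 6.89% of all 35116 promoters. CHR letters (TTTGAA) were held by 1 of 12 S phase and 9 of 14 mitosis promoters (64.3%), against 9.59% of promoters of genes tested and 15.2% of all promoters. CCAAT, read by NF-Y, was held by 7 of 12 S phase and 13 of 14 mitosis promoters, against 37.7% of promoters of genes tested and 34.6% of all. In the wider lists, E2F letters were held by 22 of 51 other replication promoters (43.1%) and CHR letters by 39 of 59 other mitosis promoters (66.1%).

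Of the 4 S phase members that fell with the block, 3 held E2F letters, and so did 4 of the 7 tested members with a promoter that were not called. The NF-kB and AP-1 letters given above occurred in 0 of 35 member promoters. They occurred in 2.25% and 4.62% of promoters of genes tested and in 1.91% and 7.71% of all. The search covered 300 bases on both strands of the first window listed for each member, so a match, or none, describes only that window.

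**Figure D3:**
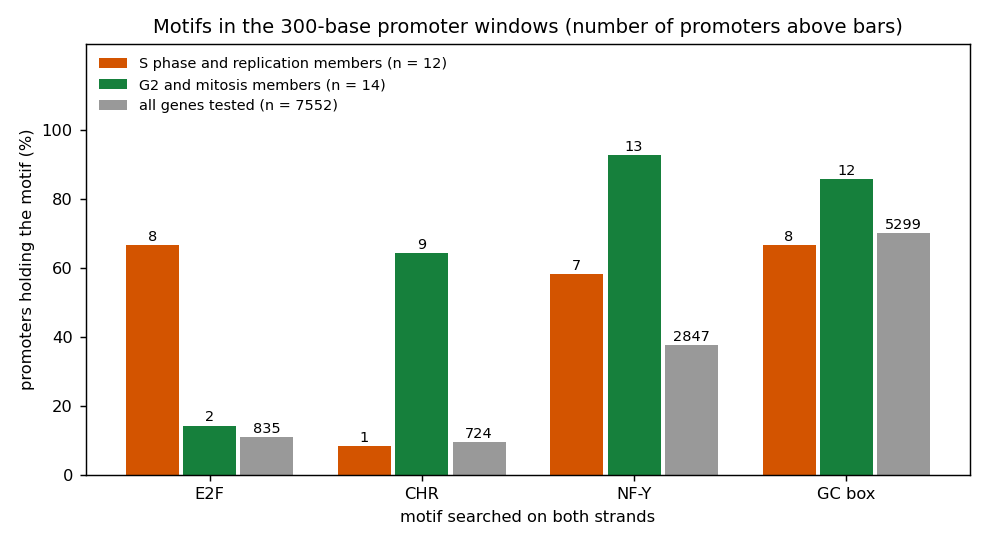
Share of promoter windows (y axis, %) that hold each motif on either strand (x axis; E2F is TTTNNCGC, CHR is TTTGAA, NF-Y is CCAAT, GC box is GGGCGG), for S phase members (n = 12), mitosis members (n = 14) and all genes tested (n = 7552); numbers above bars count promoters. E2F letters stand highest in S phase members (8 of 12), CHR and CCAAT in mitosis members (9 and 13 of 14), and the GC box is common in all 3 sets.

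Title series moved many members more than IL-1 did. The Sample arrays differed from the Allstars arrays by more than the IL-1 difference in 25 of 39 members (64.1%), against 57.8% of all genes. CCND2 was the widest, at -1.68, and CDKN1A was at -0.98. The IL-1 difference had the same sign in both series in 27 of 39 members (69.2%), against 76.1% of all genes. By group these were 7 of 7 G1 genes, 10 of 13 S phase genes and 7 of 16 mitosis genes. The Sample difference is 1 array against 1 and has no replicate.

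**Figure D4:**
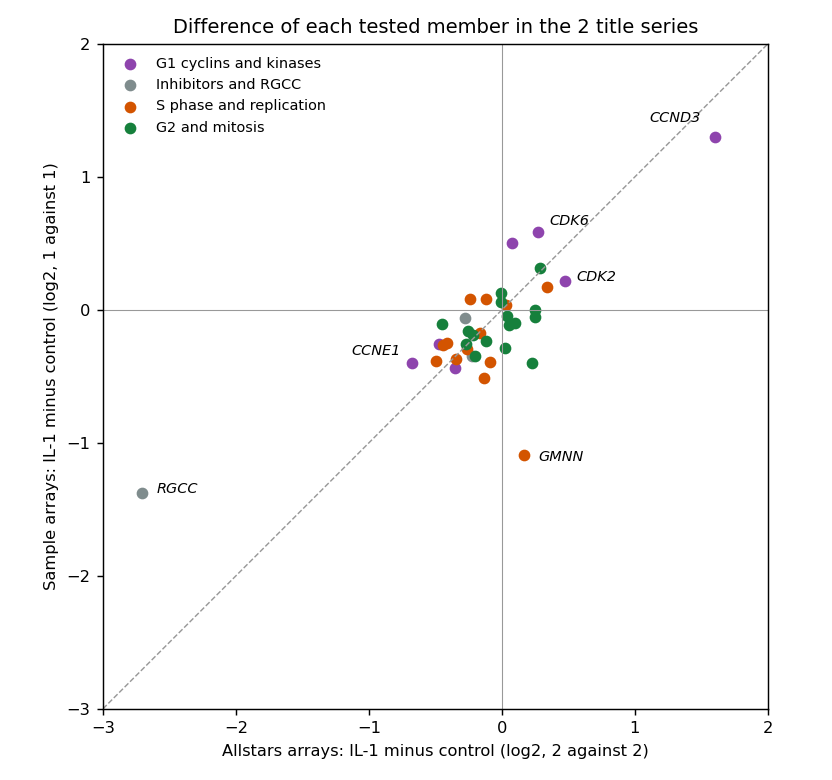
Difference of each tested member, IL-1 minus control (log2), on the Allstars arrays (x axis, 2 against 2) and the Sample arrays (y axis, 1 against 1), coloured by group; the dashed line marks equal differences. CCND3 (1.61 and 1.30) is the highest point and RGCC (-2.71 and -1.38) the lowest in both series, while GMNN (0.16 and -1.09) changes sign and lies near RGCC on the Sample axis.

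Wider lists of each phase were measured beside the members. Of 35 other G1 regulators 29 were tested. Limma called 0 without the block. At an unadjusted p under 0.05, 2 of the 29 were higher and 4 lower, against 897 and 1114 of all 9078 genes. With the block 2 rose (6.90%, against 13% of all genes) and 8 fell (27.6%, against 22.2%). CDKN2D, an inhibitor of CDK4 and CDK6, differed by 0.81 (limma adjusted p = 0.000445 with the block), and LIN52, a DREAM subunit, by 0.99 (0.002), with 3 IL-1 and 1 control arrays well above background. TFDP2, a partner of E2F factors, differed by -0.88 (0.0155), with 1 IL-1 and 3 control arrays well above background. LIN52 and TFDP2 each passed the detection filter only through the group in which it was higher, so their calls are not independent of that filter. With the block, the TFDP2 difference was -0.34 from the authors' log2 values, and with 1 array left out it lay between -1.11 and -0.59 and was called in 4 of 6 fits, not without control replicate 1 or control replicate 2 (limma adjusted p = 0.0738 and 0.0852). LIN52 was at 0.49 and CDKN2D at 0.53 from the authors' log2 values with the block.

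Of 60 other DNA replication genes 45 were tested, of which 1 fell without the block, and 1 rose and 9 fell (20.0%, against 22.2% of all genes) with it. The riser with the block, named after its values were seen, was POLA2 (0.83, limma adjusted p = 0.000107, against 0.141 without the block). It differed by 0.89 on the Allstars arrays and by 0.69 on the Sample arrays. The gene that fell without the block was MSH6, a mismatch repair protein. MSH6 was at 10.42, 10.42 and 10.36 with IL-1, against 10.84, 10.94 and 10.91 in controls. Its groups did not overlap, and the difference was -0.49 ± 0.11 (limma adjusted p = 0.0331). The call was lost in 6 of 6 leave-one-out fits (limma adjusted p between 0.0536 and 0.157) and was kept with the block (0.000186).

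Of 71 other mitosis genes 65 were tested. Limma called 0 without the block and 4 with it, 2 rising and 2 falling, which is 6.15% against 35.2% of all genes. Without the block, 2 were higher and 1 lower at an unadjusted p under 0.05, against 897 and 1114 of all 9078 genes. CDC25B, a phosphatase that activates CDK1, differed by 0.50 (limma adjusted p = 0.000593 with the block). CKAP2L, a spindle protein, differed by 0.49 (0.0047), and NCAPD2, a condensin subunit, by -0.40 (0.0127), a call lost without control replicate 2 (0.0796). From the authors' log2 values with the block CKAP2L differed by 0.31. The median difference of the 65 was -0.08, close to the -0.11 of all genes.

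Of 24 p53 target genes 16 were tested and 1 rose (6.25%, against 6.08% of all genes). With the block 2 rose (12.5%, against 13% of all genes) and 6 fell (37.5%, against 22.2%). The riser in both fits was SUSD6, a p53-responsive membrane protein, at 8.73, 8.87 and 8.82 with IL-1, against 7.55, 7.73 and 7.49 in controls. Its groups did not overlap, with a difference of 1.22 ± 0.14 (limma adjusted p = 0.00154). The call was kept whichever array was left out (limma adjusted p between 0.00355 and 0.0134). With the block GADD45B rose as well (0.59), and the 6 that fell, named after their values were seen, were XPC (-0.65), GADD45A (-0.60), SESN1 (-0.58), TP53INP1 (-0.51), TP53I3 (-0.43) and PHLDA3 (-0.41). CDKN1A, a p53 target among the members, was not called in either fit.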

How the data were processed

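Total RNA was labelled with biotin and hybridised to Illumina bead arrays. For each of 48784 probes and 6 arrays the deposited table holds an intensity and a p-value of detection, named so in its header, which states no normalization. The authors' series matrix holds log2 values (correlation with log2 signal 0.983 to 1.00 per array, medians 5.86 to 5.87 on Allstars and 6.49 to 6.50 on Sample arrays, centring not stated). It was used as an alternative. The submitters' processing notes list lumi. Its settings are not given here.

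Background correction (normexp, offset 16) and quantile normalization used neqc (limma 3.58.1, R 4.3.3). A probe was kept if detected (p under 0.01) on 3 or more arrays, which left 13017. GEO's platform annotation gave 28085 probes 1 gene, 13 several and 20686 none. Gene IDs matched RefSeq for 28046, and 0 symbols changed. The brightest of a gene's kept probes stood for it. Members had 62 probes, 49 kept, and 2 of 10 kept probes not chosen had the opposite sign.

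Genes were tested with lmFit and eBayes (trend), two-sided, 3 arrays against 3, without a block, as the series states none. Title series served as a block and as an interaction. The members, lists and the rule for wider genes (3 largest called per list, with the block where none was called without) were chosen with earlier results of these data known. The fits were tested on simulated data. Same-numbered arrays deviated together (correlation 0.531 and 0.551, and 0.818 for the Sample pair), but 0.0822 within the Allstars series once series means were removed, so the numbers were taken to pair no samples beyond the series. No 2 arrays held identical values. Alternatives covered blocks, the Allstars arrays alone, background correction, normalization, detection filters, probes, the variance model, array weights and leaving out each array.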

Additional observations from a re-analysis of the deposited data

How the results depend on the processing

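Of 27 alternatives, CCND3 and RGCC were called in 26 each, and both were lost with equal array medians (limma adjusted p = 1.00 and 0.0697). That scaling aligned the median of all probes, most of them not above background, and moved the median of all genes to -0.22. With the same scaling and the block, CCND3 (1.44) and RGCC (-2.33) were both called (limma adjusted p = 2.29e-06 and 5.81e-16). Why the calls were lost without the block was not tested. A second scaling, chosen after seeing the data, set equal medians of the kept probes (median of all genes -0.06), and both were called. No result reversed its sign among called values. MKI67, BUB1B, CCNE2, CDC6 and E2F1 were not measurable at this signal over background, and the number of arrays limits the rest.

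For all genes risen (552) and all genes fallen (267), title series as a block gave 1181 and 2015, Allstars arrays alone 1048 and 1534, array weights 1154 and 1787, equal array medians 165 and 6, equal medians of kept probes with the block 1312 and 1658, and the authors' log2 values with the block 1108 and 2126. All genes fallen numbered 539 with equal array medians and the block, and 170 with the authors' log2 values. Leaving out each array gave 350 to 612 risen and 67 to 353 fallen, and with the block 1071 and 1739 (without IL-1 replicate 1), 1078 and 1713 (IL-1 replicate 2), 1038 and 1544 (IL-1 replicate 3), 1009 and 1399 (control replicate 1), 1024 and 1333 (control replicate 2) and 1048 and 1524 (control replicate 3). Fallen calls were 76, 91, 67 and 68 without IL-1 replicates 1 and 2 and control replicates 1 and 2. For members risen (1) and members fallen (1), the block gave 4 and 10, Allstars arrays alone 2 and 8, array weights 4 and 8, equal array medians 0 and 0, equal medians of kept probes with the block 6 and 8, and the authors' values with the block 3 and 14. Members fallen numbered 2 with eBayes without a trend (CCNE1 added) and 2 with equal array medians and the block. Leaving out each array gave 1 and 1 throughout, and with the block 2 to 4 and 8 to 9.

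Of the 14 members called with the block, Allstars arrays alone shared 10 (BUB1, CCNB2, CDK6 and TOP2A lost), the authors' values with the block 13 (BUB1 lost, AURKB, CDKN1B, KIF11 and KIF20A added as fallen), kept-probe medians with the block 12 (CCNB2 and TOP2A lost, CCND1 and UBE2C added as risen) and equal array medians with the block 3 (CCND3, CCNE1 and RGCC kept). MCM3, MCM6, PCNA and RRM1 stayed called in the first 3 of these. Of 16 mitosis genes, 0 rose and 5 fell with the authors' values and the block, and 2 rose and 0 fell with kept-probe medians and the block. The G1 median of 0.22 was -0.10 without control replicate 3 and positive in the other 26 alternatives. The S phase median lay between -0.39 and -0.15 in all 27, and the mitosis median between -0.18 (equal array medians, with or without the block) and 0.02. The median of the inhibitors with RGCC was -0.42 with equal array medians, with or without the block, and -0.57 to -0.057 with an array left out. Elsewhere the causes of these differences were not tested.

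With the replicate number as a block (replicate block: 2 numbered Allstars pairs and the Sample pair), 1214 genes rose and 2109 fell, members 4 and 10, the same 14 members as with title series as a block.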
